A study of Mus musculus with 27 samples.

Results

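The genes described here write, read or organise methylation of lysine 9 of histone H3 (H3K9). They were taken by symbol from the expression tables, and 9 of 20156 genes are members: the methyltransferase genes Setdb1, Suv39h1, Suv39h2, Ehmt1 and Ehmt2, the heterochromatin protein 1 (HP1) genes Cbx1, Cbx3 and Cbx5, and the corepressor gene Trim28. The rule itself uses symbols alone, and it was written with earlier results of these data known. The study followed the reprogramming of mouse fibroblasts with retroviruses that carry the Yamanaka factors. It compared mouse embryonic fibroblasts (MEFs), partly reprogrammed pre-iPSCs and induced pluripotent stem cells (iPSCs). MEFs came from day 13.5 embryos that carry an Oct4-GFP transgene and a Rosa26 allele, on CBA/CaJ and C57BL/6J backgrounds with 129Sv/Jae mothers, and pre-iPSCs and iPSCs were induced from such MEFs. MEFs were used within 3 passages, while pre-iPSCs and iPSCs had grown for 6 passages, and both were expanded on layers of inactivated MEFs. RNA-seq, H3, H3K4me3 and H3K27me3 had 2 biological replicates per cell type, and H3K9me3 had 1 library per cell type. Pre-iPSCs were 2 stable clones and iPSCs their counterparts, but which clone a library came from is not given in the sources used here.

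Methylated H3K9 is the mark of heterochromatin. Suv39h1 and Suv39h2 place the trimethyl form on the repeats beside centromeres, Setdb1 places it on retroviral elements and on repressed genes, and the Ehmt1 and Ehmt2 proteins (GLP and G9a) act as a pair that places mainly the mono- and dimethyl forms in euchromatin. HP1 proteins bind the methylated lysine through a chromodomain: Cbx1 encodes HP1β, Cbx3 HP1γ and Cbx5 HP1α. Trim28 (KAP1) is brought to DNA by zinc finger proteins and in turn recruits Setdb1 and HP1. H3K9 methylation is known as a barrier on the way from a fibroblast to a pluripotent cell, and H3K4me3, the mark of active promoters, and H3K27me3, the mark of Polycomb repression, were measured in the same cells.

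The promoters of 4 members are shown because the results below turn on them: Suv39h2, Cbx1 and Trim28 were called in 1 expression comparison, and the transcribed side of the Setdb1 window has a near-identical copy elsewhere. Each run holds the 250 bases upstream of the transcription start site (TSS), read from mm9 on the strand of the gene. The TSS is the start given by the files for the transcript measured. Capitals mark the GC box GGGCGG and, in Setdb1 alone, the CCAAT box, in either orientation. The windows are chr2:3392259-3392508 (minus strand) for Suv39h2, chr11:96650200-96650449 (plus strand) for Cbx1, chr7:13609251-13609500 (plus strand) for Trim28 and chr3:95161125-95161374 (minus strand) for Setdb1.
Suv39h2: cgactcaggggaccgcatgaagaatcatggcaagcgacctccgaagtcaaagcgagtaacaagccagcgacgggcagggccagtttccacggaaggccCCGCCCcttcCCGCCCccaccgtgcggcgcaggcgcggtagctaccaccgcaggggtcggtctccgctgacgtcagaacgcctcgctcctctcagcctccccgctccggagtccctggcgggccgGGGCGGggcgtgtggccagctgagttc
Cbx1: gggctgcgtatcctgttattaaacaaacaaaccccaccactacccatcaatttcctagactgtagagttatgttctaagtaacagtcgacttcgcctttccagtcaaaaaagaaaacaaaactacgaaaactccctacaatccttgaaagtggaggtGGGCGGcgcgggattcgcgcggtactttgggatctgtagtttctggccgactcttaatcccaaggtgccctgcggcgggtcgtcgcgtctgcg
Trim28: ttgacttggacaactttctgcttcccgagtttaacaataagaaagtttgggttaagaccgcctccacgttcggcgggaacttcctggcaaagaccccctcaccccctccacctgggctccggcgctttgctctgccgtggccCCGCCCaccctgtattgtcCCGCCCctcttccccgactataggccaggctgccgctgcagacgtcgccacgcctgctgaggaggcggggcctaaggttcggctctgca
Setdb1: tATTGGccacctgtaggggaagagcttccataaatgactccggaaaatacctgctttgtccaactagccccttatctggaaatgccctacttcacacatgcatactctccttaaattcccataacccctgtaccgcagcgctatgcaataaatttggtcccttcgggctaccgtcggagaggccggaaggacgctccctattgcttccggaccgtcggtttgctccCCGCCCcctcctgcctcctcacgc

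All 9 members had a GC box in these 250 bases, against 45.8% of the 20156 promoters. The CCAAT box lay in 2 of the 9, Suv39h1 and Setdb1, against 35.5% of promoters. Ehmt2 was the single member with the E-box CACGTG (6.91% of promoters), and Cbx3 the single member with an E2F motif, searched as TTTCCCGC, TTTGGCGC, TTTCGCGC and TTTGCCGC (2.46%). No member had the NRF1 core GCATGCGC (3.07%). The members held 7 to 36 CpG dinucleotides, from Cbx5 to Ehmt2, and 7 of the 9 were above the promoter median of 11. Such matches describe letters and not bound sites.

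In mm9, Setdb1 (NM_001163641) spans chr3:95127447-95161124 on the minus strand, and Suv39h1 (NM_011514) spans chrX:7638297-7651886, also on the minus strand. Suv39h2 (NM_022724) and Ehmt1 (NM_001012518) are both on the minus strand of chromosome 2, at chr2:3373087-3392258 and chr2:24646294-24775110. Ehmt2 (NM_145830) lies at chr17:35035919-35050992, Cbx1 (NM_007622) at chr11:96650450-96669954, Cbx3 (NM_007624) at chr6:51420615-51433703 and Trim28 (NM_011588) at chr7:13609501-13616381, all on the plus strand. Cbx5 (NM_001110216) lies on the minus strand at chr15:103021977-103045783. Of the 9 windows that reach 1000 bp either side of the TSS, that of Cbx3 also holds the TSS of another gene of the tables. This gene is Hnrnpa2b1, which encodes an RNA-binding protein and starts 722 bp away on the other strand.

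Some members share sequence with other parts of the genome, and since the authors kept uniquely mapped reads, reads from such stretches can be lost. The Cbx3 transcript had 12 further matches of at least 200 bp and 90% identity, the longest over 1759 bp at 95.7% identity. Cbx1 had 1, over 556 bp at 90.3%. Setdb1 had 1, over 580 bp at 99.8%, and in its promoter window 982 bases downstream of the TSS had a copy at 98.9% identity. The transcripts of the other 6 members had none. The FPKM of Cbx3 in particular is uncertain for this reason.

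The labels were checked against marker genes before the members were compared. The 10 fibroblast markers summed to 4858 and 4512 FPKM in the MEF libraries and to 226 to 396 FPKM in the other 4. All 10 pluripotency markers were called higher in iPSCs than in MEFs, with 7 to 9 of them listed at 0 in MEF libraries. In pre-iPSCs 4 of the 10 were called higher than in MEFs, namely Pou5f1, Utf1, Tdgf1 and Dppa5a, and 1 to 3 were listed at 0. There, Nanog, the core pluripotency factor, was listed at 0.519 and 0 FPKM, and Pou5f1, which encodes Oct4 and is also carried by the virus, at 378 and 3184 FPKM. Blood, endothelial and keratinocyte markers summed to at most 3.62, 4.5 and 14.7 FPKM in any library. The keratinocyte sum was nearly all Krt14, at 13.5 and 6.28 FPKM in pre-iPSCs and at most 0.112 in the other 4 libraries, which was called higher in pre-iPSCs than in MEFs (3.28 ± 0.38, limma adjusted p = 0.00248) and lower in iPSCs than in pre-iPSCs. Cd3e (2.27 and 1.91 FPKM in iPSCs, listed at 0 elsewhere) and Emcn (1.22 and 4.5 in MEFs) were also called, and the part of these genes in the results was not tested. The 10 markers of dividing cells summed to 641 and 396 FPKM in MEFs, 894 and 499 in pre-iPSCs, then 1069 and 843 in iPSCs, and 4 of them were called higher in iPSCs than in MEFs. These markers moved with the cell types, and their part in the results below was not tested. In bulk samples, fewer cells of a type and less RNA per cell cannot be told apart. The summed FPKM of all genes was 818207 in replicate 2 of MEFs and 392424 to 527799 in the other 5 libraries. Replicate 2 was below replicate 1 for 8 of the 9 members in MEFs (52.8% of all genes), for 8 in pre-iPSCs (59.97%) and for 4 in iPSCs (52.0%).

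Among the trimethylating enzymes, Suv39h2 had the lowest level of all members in every library. FPKM, fragments per kilobase of transcript scaled to library size, allow levels of different genes to be compared. Suv39h2 was at 2.29 and 1.29 FPKM in replicates 1 and 2 of MEFs, at 4.60 and 3.03 in pre-iPSCs and at 6.03 and 6.79 in iPSCs. The ranges of the 3 cell types did not overlap, and the level was lowest in MEFs and highest in iPSCs. Suv39h1, its paralog on chromosome X, followed another course. It was at 18.2 and 9.95 FPKM in MEFs, 30.5 and 21.2 in pre-iPSCs, then 16.7 and 12.8 in iPSCs. Both pre-iPSC libraries were above the other 4, while MEFs and iPSCs overlapped.

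Setdb1 was at 11.3 and 3.71 FPKM in MEFs, 28.1 and 12.4 in pre-iPSCs, then 14.3 and 16.3 in iPSCs. Both MEF libraries were below the other 4, and pre-iPSCs and iPSCs overlapped. The MEF libraries differed by more from each other than for any other member, as replicate 2 gave about a 3-fold lower value than replicate 1. Ehmt2, which encodes G9a, was at 35.5 and 27.8 FPKM in MEFs, 50.8 and 47.7 in pre-iPSCs, then 35.6 and 18.6 in iPSCs, and again both pre-iPSC libraries stood above the rest. Its partner Ehmt1 was at 13.8 and 8.87, 21.1 and 13.3, and 16.0 and 13.4 FPKM, with overlap between every pair of cell types. The 5 methyltransferase genes together summed to 81.1 and 51.6 FPKM in MEFs, 135.1 and 97.5 in pre-iPSCs, then 88.5 and 67.9 in iPSCs.

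Of the HP1 genes, Cbx1 did not overlap between iPSCs and the other cell types, and Cbx3 and Cbx5 overlapped in every comparison. Both iPSC libraries were higher in 20.9% of all genes against pre-iPSCs and in 26.7% against MEFs. Cbx1 was at 30.2 and 27.8 FPKM in MEFs, 33.7 and 25.8 in pre-iPSCs, then 61.2 and 74.3 in iPSCs, so that both iPSC libraries were above the other 4. Cbx3 was at 58.0 and 68.6 FPKM in MEFs, 62.2 and 72.6 in pre-iPSCs, then 44.2 and 84.0 in iPSCs. The iPSC values of Cbx3 lay on either side of all the others. Cbx5 was at 21.02 and 12.3, 26.4 and 13.9, and 20.1 and 20.4 FPKM, with overlap throughout.

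Trim28 had the highest level of the members in every library. It was at 133 and 126 FPKM in MEFs, 221 and 148 in pre-iPSCs, then 547 and 319.6 in iPSCs. The 3 cell types did not overlap, with the lowest values in MEFs and the highest in iPSCs. In iPSCs its mean was above that of 98.9% of the 12401 genes tested, against 94.3% in MEFs.

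**Figure D1:**
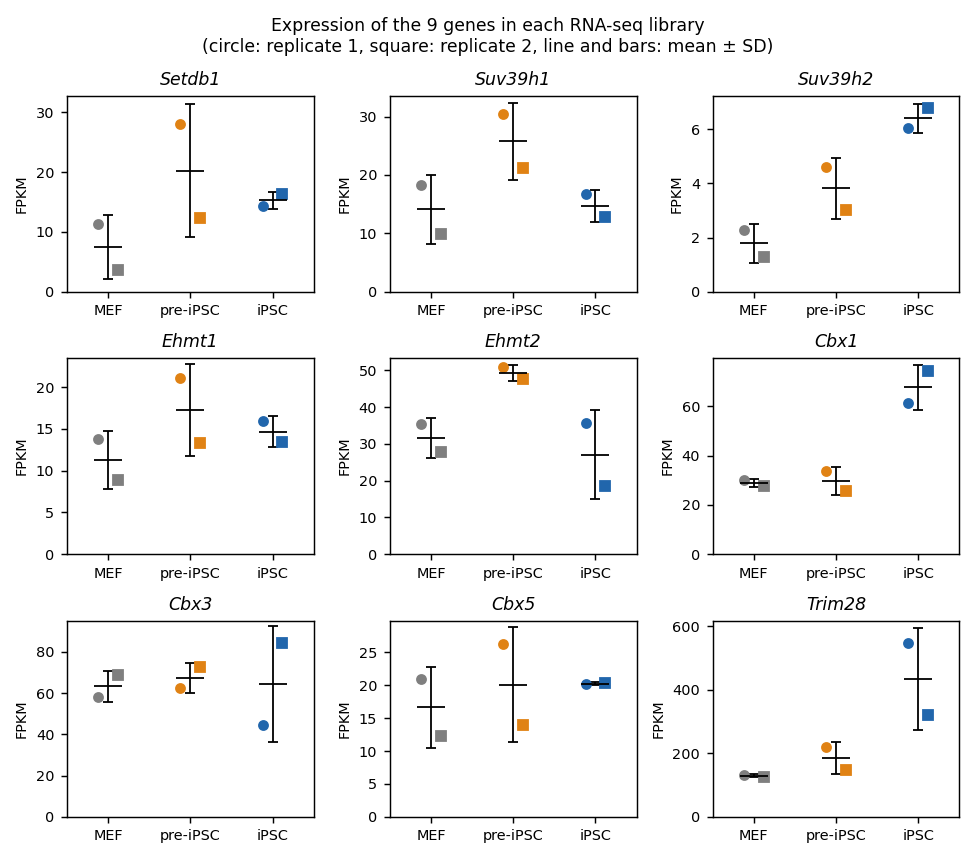
FPKM of each member (y axis, from 0) in the RNA-seq libraries of MEFs, pre-iPSCs and iPSCs (x axis), with circles for replicate 1, squares for replicate 2, and the mean ± SD (n = 2) in black. Suv39h2 and Trim28 step up from MEFs to pre-iPSCs to iPSCs without overlap, Cbx1 is high in iPSCs alone (61.2 and 74.3 FPKM), and both pre-iPSC values of Suv39h1 and Ehmt2 lie above the other 4. The share of all genes with such patterns was not counted.

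The first and the last member by mean level were the same in all cell types, while others changed places. Trim28 led everywhere, at 129 ± 4.89 FPKM in MEFs and 433 ± 161 in iPSCs (mean ± SD, n = 2), and its libraries did not overlap those of the next gene. In MEFs and pre-iPSCs Cbx3 came second, Ehmt2 the third and Cbx1 the fourth, and Ehmt2 and Cbx1 overlapped in MEFs. In iPSCs Cbx1 (67.8 ± 9.24 FPKM) and Cbx3 (64.1 ± 28.1) overlapped and stood above Ehmt2 (27.1 ± 12.0). Suv39h1, Ehmt1 and Cbx5 lay between 11.3 and 25.8 FPKM on average in all 3 cell types, with neighbours that often overlapped. Setdb1 was at rank 8 in MEFs (mean 7.51 FPKM) and at rank 6 in pre-iPSCs (20.2) and iPSCs (15.3). Suv39h2 was last throughout.

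The expression tables were tested with limma on log2(FPKM + 1), with the table, which is the replicate number, as a term. A gene counted as called at a Benjamini-Hochberg adjusted p below 0.05 and a 2-fold change. All 9 members passed the filter of a mean of 0.5 FPKM, and 12401 genes were tested. Each cell type enters 2 of the 3 comparisons, so their values are given side by side and are not independent. In pre-iPSCs against MEFs, 0 of the 9 members were called, while 7.39% of genes were called higher and 9.0% lower. At an unadjusted p below 0.05 limma gave 2 members, Setdb1 and Suv39h1, and 31.4% of all genes. In iPSCs against pre-iPSCs, 0 of 9 were called as well, against 3.91% of genes higher and 4.71% lower, with 3 members and 21.6% of all genes at an unadjusted p below 0.05. In iPSCs against MEFs, 3 of 9 members were called higher and 0 lower, against 10.3% and 15.5% of all genes tested, and 4 members and 39.3% of all genes were below the unadjusted 0.05.

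The 3 called members were Trim28, with a log2 change of 1.69 ± 0.42 (SE, adjusted p = 0.026 by limma), Suv39h2, with 1.43 ± 0.38 (adjusted p = 0.031), and Cbx1, with 1.19 ± 0.35 (adjusted p = 0.0443). Each was higher in iPSCs in both tables. In the 2 tables, the ratio of iPSC to MEF FPKM was 4.13 and 2.54 for Trim28, 2.64 and 5.29 for Suv39h2, and 2.03 and 2.67 for Cbx1. The calls depended on the libraries used. With either pre-iPSC or either iPSC library left out, limma called no member, and it called fewer of all genes as well. Leaving out a pre-iPSC library did not change the log2 changes. Without replicate 1 of iPSCs they were 1.76 for Suv39h2, 1.45 for Cbx1 and 1.46 for Trim28. Without replicate 2 of iPSCs they were 1.11, 0.93 and 1.91. Without replicate 2 of MEFs Trim28 alone was called (1.99 ± 0.54), and without replicate 1 the called members were Suv39h2 (1.61), Cbx1 (1.22) and Setdb1 (1.55). More of all genes were called in both of these fits. With no filter on low values Trim28 alone stayed called (adjusted p = 0.0413), and Suv39h2 (0.0727) and Cbx1 (0.0521) did not pass. With quantile normalization, which gives every library the same distribution, the log2 changes were 2.35 for Trim28, 1.56 for Suv39h2 and 1.61 for Cbx1, and all 3 were called.

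Setdb1 had the largest log2 change of the members in pre-iPSCs against MEFs, 1.37 ± 0.46, which did not pass the test (limma, adjusted p = 0.0865). Its FPKM was 2.48 and 3.33 times that of MEFs in the 2 tables. It was called without replicate 1 of MEFs (1.83), which leaves the lower MEF library alone, and more of all genes were called there too. In iPSCs against MEFs it was at 1.09 ± 0.46 (adjusted p = 0.122). Suv39h1 (0.86 ± 0.34, adjusted p = 0.133), Suv39h2 (0.79 ± 0.38, 0.204) and Ehmt2 (0.63 ± 0.36, 0.287) had positive values in pre-iPSCs against MEFs that did not pass the adjusted test.

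In iPSCs against pre-iPSCs no member passed the test. Trim28 (1.20 ± 0.42, limma adjusted p = 0.149) and Cbx1 (1.17 ± 0.35, 0.0947) had the most positive log2 changes, and Ehmt2 (-0.91 ± 0.36, 0.20) and Suv39h1 (-0.76 ± 0.34, 0.259) the most negative. Cbx1 and Trim28 were called when either MEF library was left out, but their log2 changes stayed the same and more of all genes were called. Quantile normalization called Trim28 (1.35, adjusted p = 0.0363). Cbx5 was at 0.08 ± 0.37, Cbx3 at -0.14 ± 0.37, Ehmt1 at -0.19 ± 0.34 and Setdb1 at -0.28 ± 0.46, each within its SE of 0.

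**Figure D2:**
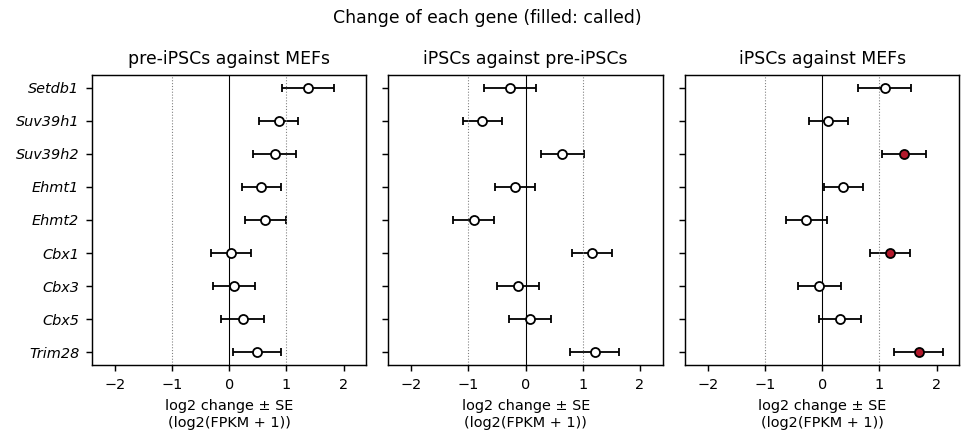
Log2 change ± SE of each member on the log2(FPKM + 1) scale (x axis) in the 3 comparisons, with filled points for called members and dotted lines at a 2-fold change. All 9 values are positive in pre-iPSCs against MEFs with none called, and 3 are filled in iPSCs against MEFs: Suv39h2 at 1.43, Cbx1 at 1.19 and Trim28 at 1.69.

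Read as a group, the members had a median log2 change of 0.56 in pre-iPSCs against MEFs, -0.14 in iPSCs against pre-iPSCs, and 0.37 when iPSCs were set against MEFs. The medians of all 12401 genes were -0.04, -0.09 and -0.14. Values were positive for 9, 4 and 7 of the 9 members. Both libraries were higher in 5 members in pre-iPSCs against MEFs (24.6% of all genes) and lower in 0 (29.3%). In iPSCs against pre-iPSCs both were higher in 3 (20.9%) and lower in 2 (31.1%), and in iPSCs against MEFs both were higher in 4 (26.7%) and lower in 0 (36.2%). These shares hold for each comparison alone, and the share of all genes with an order over all cell types was not counted. An exact permutation test of 2 libraries against 2 cannot give a two-sided p below 0.33.

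The shares of related genes within a library do not depend on a scaling factor of that library. Suv39h2 made up 11.1% and 11.4% of the summed FPKM of Suv39h1 and Suv39h2 in MEFs, 13.1% and 12.5% in pre-iPSCs, then 26.6% and 34.6% in iPSCs. Both pre-iPSC libraries lay just above both MEF libraries, and both iPSC libraries lay far above these 4. Cbx1 made up 27.6% and 25.6% of the HP1 sum in MEFs, 27.6% and 23.0% in pre-iPSCs, then 48.7% and 41.6% in iPSCs, again with the iPSC libraries apart. The share of Cbx3 was 53.1% and 63.1%, 50.9% and 64.6%, and 35.2% and 47.0% in the same order, and is subject to the copies named above. Without Cbx3, Cbx1 was 64.2% ± 7.34 of the sum of Cbx1 and Cbx5 in MEFs, 60.6% ± 6.25 in pre-iPSCs, then 76.8% ± 2.28 in iPSCs (SD, n = 2). Cbx5 had 11.3% to 21.5% of the HP1 sum, with no order among cell types. Ehmt1 made up 27.9% and 24.2% of the Ehmt sum in MEFs, 29.4% and 21.8% in pre-iPSCs, then 31.0% and 41.8% in iPSCs. Both iPSC values were the highest here too, but replicate 1 of iPSCs was within 2 percentage points of a pre-iPSC library.

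**Figure D3:**
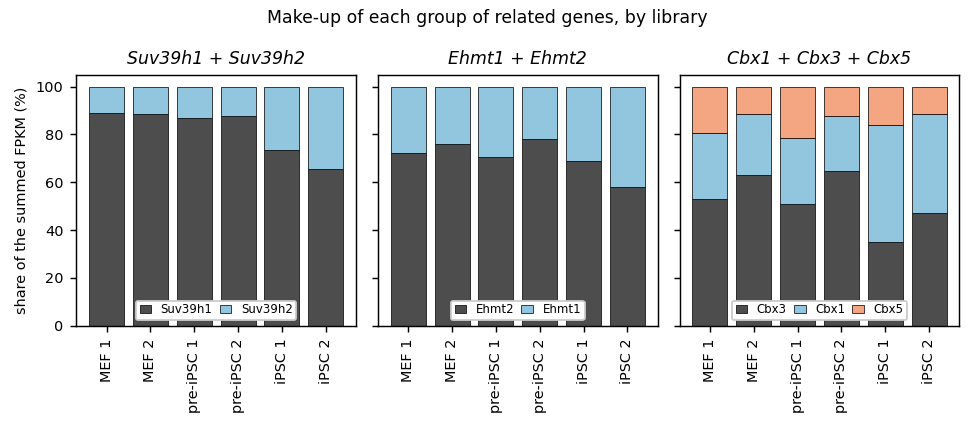
Share of the summed FPKM (y axis, in percent) that each gene takes of Suv39h1 and Suv39h2, of Ehmt1 and Ehmt2, and of the HP1 genes, 1 bar per RNA-seq library (x axis). The Suv39h2 share is 11.1% to 13.1% in the 4 MEF and pre-iPSC bars and 26.6% and 34.6% in iPSCs, and the Cbx1 share is 23.0% to 27.6% and then 48.7% and 41.6%.

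The remaining machinery was taken from 6 lists of 37 genes, of which 34 were tested. In iPSCs against MEFs 11 of the 34 were called higher (limma) and 2 lower, and their median log2 change was 0.81, beside 10.3% and 15.5% of all genes called and an all-gene median of -0.14. In pre-iPSCs against MEFs 4 were called higher and 1 lower (7.39% and 9.0% of all genes), and in iPSCs against pre-iPSCs 3 and 0 (3.91% and 4.71%). Of 10 tested HP1 and H3K9me3 binding partners, 5 were called higher in iPSCs than in MEFs. The largest of these changes were in Uhrf1, which links H3K9 methylation to DNA methylation (1.89 ± 0.35, limma adjusted p = 0.00873), Lbr, the lamin B receptor that binds HP1 (1.81 ± 0.52, 0.0412), and Daxx, a chaperone of histone H3.3 (1.81 ± 0.33, 0.00850). Of 4 zinc finger partners and relatives of Trim28, Zfp57, which brings Trim28 to imprinted regions, and Trim24, a relative of Trim28, were called higher (2.05 ± 0.40, 0.0108, and 1.27 ± 0.34, 0.032). Zfp57 was already at 79.8 and 87.6 FPKM in pre-iPSCs, against 21.4 and 10.2 in MEFs.

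The enzymes that erase the mark are demethylases. Of 10 tested H3K9 demethylase genes, 3 were called higher in iPSCs than in MEFs, namely Kdm4c (1.65 ± 0.40, limma adjusted p = 0.0235), Kdm3a (1.55 ± 0.42, 0.0326) and Kdm1a (1.15 ± 0.34, 0.0428). Phf2 was called lower (-1.45 ± 0.41, 0.0394), and the other 6 did not pass, beside 10.3% of all genes called higher and 15.5% lower. In pre-iPSCs against MEFs 2 of the 10 were called higher, against 7.39% of all genes, namely Kdm3a (1.79 ± 0.42, limma adjusted p = 0.0266) and Jhdm1d (2.30 ± 0.42, 0.0116), and in iPSCs against pre-iPSCs none was. Of the cofactors of Setdb1 and of the Ehmt pair, Atf7ip2, a relative of the Setdb1 partner Atf7ip, was the 1 of 4 that was called, and it was higher (1.95 ± 0.36, 0.00920). Of the other H3K9 methyltransferase genes 2 were tested, and Mecom (Prdm3) was called lower (-2.35 ± 0.33, 0.00324), from 5.92 and 4.39 FPKM in MEFs to 0.0685 and 0.341 in iPSCs. None of the 4 tested genes of the HUSH complex, which silences elements together with H3K9me3, and of its partner Morc2a was called in any of the 3 comparisons.

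The genes with the pattern most like that of each member are given by Pearson's r of log2(FPKM + 1) over the 6 libraries, among 12400 other genes. With 6 libraries of 3 cell types a high r is common, and 2 to 240 genes were above 0.95 for a member. For Setdb1 these were Ttc4 (0.997), Spred2 (0.992) and Tspan14 (0.991), for Suv39h1 Map3k11 (0.996), Zbtb39 (0.995) and Sfswap (0.988), and for Suv39h2 Rybp, a Polycomb component (0.996), Lrfn1 (0.996) and Set, a histone chaperone (0.996). They were Tctn3, Tcf3 and Gtf2ird1 for Ehmt1 (all 0.992) and included Ap1m1 (0.969) and Hist1h1e (0.968) for Ehmt2. For Cbx1 they were Dpp4 (0.998), Fam54a (0.993) and Slc27a2 (0.992), for Cbx3 Sub1 (0.960), Alox5ap (0.957) and Mccc1 (0.942), and for Cbx5 Qrich1 (0.987), Kpna2 (0.985) and Gle1 (0.984). For Trim28 they were Sncb (0.996), Entpd6 (0.993) and Tnnt1 (0.993).

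The chromatin at the members' promoters was read from the deposited nucleosome calls. Reads of calls whose centre (dyad) lay within 1000 bp of a TSS were summed, and levels are reads per kilobase scaled to the uniquely mapped reads of the library (RPKM). The H3 calls held 67362868 to 108211816 reads per library and those of the 3 marks 12007350 to 15222040, so that a promoter received few reads. MEFs were digested with another amount of MNase and for another time than the other cells, and in comparisons with MEFs the cell type and the digestion cannot be told apart.

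H3K4me3 reads were found at every member in every library, 2 to 72 per promoter. Ehmt2 had the most or nearly the most reads, 72 and 56 in MEFs, 56 and 33 in pre-iPSCs, then 48 and 37 in iPSCs, where it stood above 70.0% to 96.2% of all promoters. Setdb1 had the fewest, 16 and 9, 8 and 9, and 2 and 10 reads, and stood above 3.54% to 32.4% of all promoters. Of its reads in the 6 libraries 0 to 5 lay downstream of the TSS, in the stretch that has a copy elsewhere, and only uniquely mapped reads were kept by the authors, so its total is a lower limit. Suv39h1 was also low, with 20 and 19, 19 and 12, and 15 and 23 reads. The other 6 had 18 to 54 reads, and 4 to 7 of the 9 members were at or above the median promoter of the library, which had 25 to 36 reads.

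The 3 genes called higher in iPSCs than in MEFs had less H3K4me3 in iPSCs than in MEFs on this scale, as did the means of all 9 members. Trim28 was at 1.73 and 1.62 RPKM in MEFs, 1.16 and 0.78 in pre-iPSCs, then 0.99 and 0.72 in iPSCs. Suv39h2 was at 1.83 and 1.34, 0.83 and 0.84, and 0.87 and 0.99 RPKM. Cbx1 was at 1.59 and 1.31, 0.77 and 0.97, and 1.06 and 1.05 RPKM. For all 3, both MEF libraries were above the other 4 when reads were scaled in this way. For Suv39h2 and Cbx1 both iPSC libraries were above both of pre-iPSCs, but by few reads. The counts were 28 and 30 against 27 and 26 for Suv39h2, and 34 and 32 against 25 and 30 for Cbx1. MEF libraries also had more of their H3K4me3 reads at promoters in general, 5.59% and 4.47%, against 3.68% to 4.11% in the other 4. For the median promoter too, both MEF libraries were above the other 4, at 1.22 and 0.96 RPKM against 0.81 to 0.90. The share of all promoters with this pattern was not counted.

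Tested with edgeR, whose TMM scaling takes up such general differences, 0 of the 9 members were called in each of the comparisons. The shares of all 17644 promoters called were 3.92% in pre-iPSCs against MEFs, 0.0283% in iPSCs against pre-iPSCs, and 13.9% for iPSCs and MEFs. The median log2 change of the members was -0.35, 0.11 and -0.25, beside medians of -0.01, -0.01 and -0.03 over all promoters. The lowest adjusted p of edgeR were 0.124 for Cbx3 in pre-iPSCs against MEFs (-0.82 ± 0.31) and 0.114 for Trim28 in iPSCs against MEFs (-0.61 ± 0.27). At an unadjusted p below 0.05 there was 1 member in each of these comparisons and 0 in iPSCs against pre-iPSCs. For iPSCs against MEFs, Suv39h2 was at -0.41 ± 0.27 (edgeR adjusted p = 0.293) and Cbx1 at -0.11 ± 0.26 (0.819). For iPSCs against pre-iPSCs they were at 0.11 ± 0.30 (0.949) and 0.24 ± 0.29 (0.869). DESeq2 called 0 members as well. The Cbx3 window also holds the TSS of Hnrnpa2b1, so its reads cannot be assigned to either gene alone. Scaled to unique reads without TMM, Cbx3 was called lower in pre-iPSCs than in MEFs (-1.20) and Trim28 lower in iPSCs than in MEFs (-0.96). That scaling turned the split over all promoters from 557 higher and 134 lower to 232 and 1134 in the first comparison, and from 1750 and 700 to 842 and 2370 in the second.

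**Figure D4:**
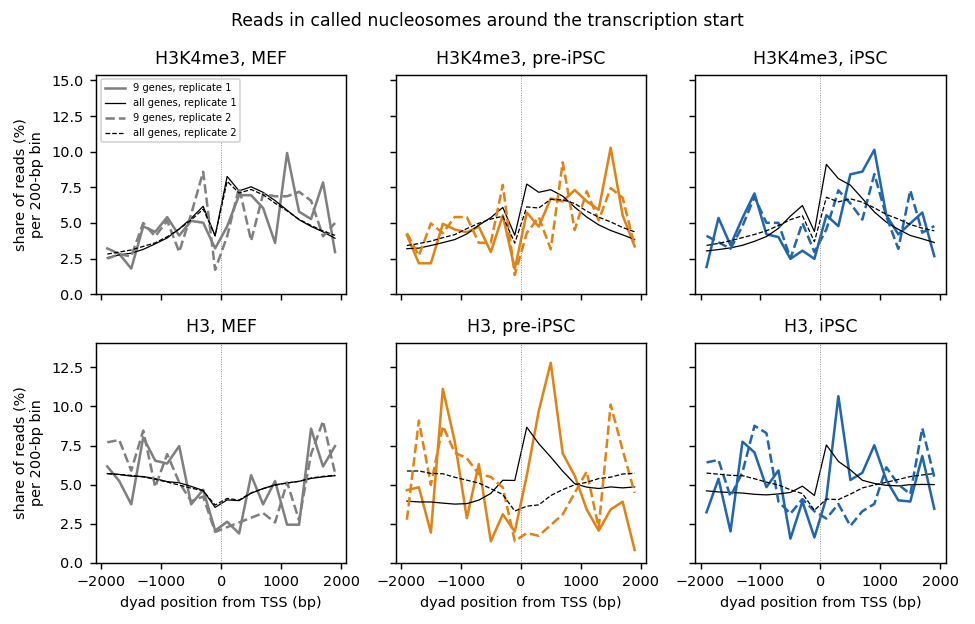
Share of the reads within 2000 bp of the TSS (y axis, in percent per 200-bp bin) against the distance of the dyad from the TSS (x axis), summed over the 9 members (thick, coloured) and over all genes (thin, black), with solid lines for replicate 1 and dashed lines for replicate 2. In the H3 panels, replicate 1 of pre-iPSCs and of iPSCs holds 9.71% and 10.7% of the members' reads in the bin centred at 300 bp, against 1.72% to 3.76% in the other 4 libraries.

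Within the window the H3K4me3 reads lay more often downstream of the TSS, for the members as for all genes, whose downstream share was 57.1% to 60.4%. MEFs had downstream shares of 55.3% and 54.8%, followed by 61.6% and 55.1% in pre-iPSCs, then 69.8% and 60.9% in iPSCs, over 214 to 398 reads. The bin just upstream of the TSS held 1.35% to 3.22% of the members' reads within 2000 bp, against 3.59% to 4.40% over all genes, and was lower for the members in each of the 6 libraries.

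H3, which follows nucleosomes whatever their marks, was sparse at the members. All 9 promoters together had 219 to 247 reads in 4 libraries, but replicate 1 had 909 for pre-iPSCs and 667 for iPSCs. These 2 libraries also had more of all their reads at promoters, 3.0% and 2.22%, against 1.17% to 1.31% in the other 4, so H3 levels were not compared between cell types. Relative to all promoters the members had less H3, with a mean per promoter 0.513 to 0.686 times that of all promoters in every library. The H3 level from -150 to 50 bp was 0.131 to 0.478 times that of the upstream flank, which begins 2000 bp before the TSS, against 0.544 to 1.33 over all genes. Member by member the counts were too low for a firm pattern. Levels of the flank, the -150 to 50 bp window and the 51 to 250 bp window were compared. Cbx1 was the 1 member of 9 with its lowest level in the middle one in all 6 libraries. Ties did not count as lowest. Ehmt2 missed the count only through a tie, with 0 reads in both windows near the TSS in replicate 1 of MEFs. The share of all genes with this pattern is not given here. In replicate 1 of pre-iPSCs and of iPSCs, the strongest call within 400 bp downstream lay at 206 and 204 bp from the TSS in Ehmt2 (28 and 19 reads), 206 and 200 bp in Cbx3, 113 and 119 bp in Ehmt1, 392 bp in both for Cbx1, 307 and 316 bp in Suv39h1 and 117 and 137 bp in Suv39h2. It lay at 49 and 80 bp in Trim28, and further apart in Cbx5 (330 and 51 bp) and Setdb1 (400 and 65 bp). In replicate 2 of these cell types the strongest calls held 1 to 5 reads and lay at 225 and 234 bp in Ehmt2, 150 and 116 bp in Cbx1, 87 and 161 bp in Cbx3, 115 and 362 bp in Ehmt1, 227 and 392 bp in Trim28 and 357 and 95 bp in Cbx5. There, Suv39h2 had a call at 108 bp in iPSCs and none in pre-iPSCs, and Setdb1 and Suv39h1 had none in either. For Setdb1 the stretch downstream of the TSS has the copy named above, so its reads and calls there can be lost.

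H3K27me3 was near the limit of detection at the members. The counts were 0 to 9 reads per promoter, with a median of 3, and the median promoter had 6 to 9 reads. No member passed the count filter of edgeR, so none was among the 10185 promoters tested. The summed reads of the 9 promoters were 28 and 35 in MEFs, 33 and 24 in pre-iPSCs, then 40 and 32 in iPSCs, which overlap. Per promoter this was 0.268 to 0.386 times the mean of all promoters.

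H3K9me3 reads in promoter windows were 151976 of 12404217 in MEFs, 164003 of 12942154 in pre-iPSCs and 175862 of 12222861 in iPSCs. The shares were 1.23% (exact binomial 95% interval 1.22 to 1.23), 1.27% (1.26 to 1.27) and 1.44% (1.43 to 1.45). The 19010 merged windows cover 38493843 bp or 1.45% of the genome, so the shares were 0.845, 0.874 and 0.992 times what an even spread of reads would give. For H3 the same ratio was 0.808 to 0.902 in 4 libraries and 2.07 and 1.53 in replicate 1 of pre-iPSCs and of iPSCs. The share was thus lowest in MEFs and highest in iPSCs, by 0.21 percentage points. The mean share of H3K27me3 had the same order (1.45%, 1.49% and 1.57%), although its MEF and pre-iPSC libraries overlapped, and that of H3K4me3 was highest in MEFs (5.03%, against 3.82% in pre-iPSCs and 3.92% in iPSCs). With 1 library per cell type there is no test, and the intervals cover counting error only. For the other antibodies, the SD of this share between the 2 replicates of a cell type was 0.00933 to 1.29 percentage points for H3, 0.201 to 0.788 for H3K4me3 and 0.0103 to 0.0771 for H3K27me3.

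**Figure D5:**
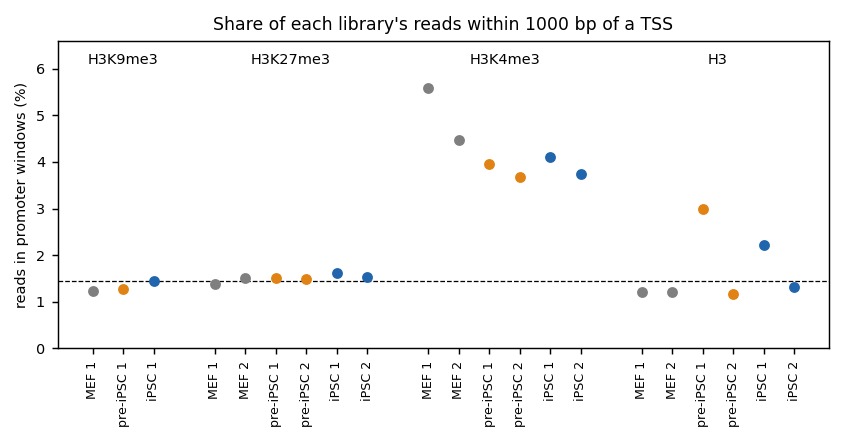
Share of each library's reads that lie within 1000 bp of a TSS (y axis, in percent), by antibody and library (x axis), with exact binomial 95% intervals that are smaller than the points and a dashed line at the 1.45% of the genome that the windows cover. The 3 H3K9me3 libraries rise from 1.23% to 1.27% and 1.44%, next to 3.68% to 5.59% for H3K4me3.

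Beside these shares, Suv39h2, Cbx1 and Trim28 also had their highest mean FPKM in iPSCs, as did Cbx5, while Setdb1, Suv39h1, Ehmt1, Ehmt2 and Cbx3 had theirs in pre-iPSCs. For Cbx5, Setdb1, Ehmt1 and Cbx3 the libraries of pre-iPSCs and iPSCs overlapped. Over 3 cell types no relation can be tested. Chromosomes X and Y took 4.22% of the H3K9me3 reads of MEFs and 2.64% and 2.63% in the other cells, and a like difference was seen with the other antibodies (H3K4me3, 3.12% and 3.78% against 2.30% to 2.41%). This bears on Suv39h1, the member on chromosome X, and its part was not tested.

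At their own promoters the members carried 0 to 12 H3K9me3 reads. The 9 together had 32 reads in MEFs (exact Poisson 95% interval 21.9 to 45.2), 37 in pre-iPSCs and 59 in iPSCs (44.9 to 76.1). Per promoter this was 0.459, 0.49 and 0.726 times the mean of all promoters. The members with the most reads in iPSCs were Ehmt1 and Ehmt2, with 2 and 2 reads in MEFs, 5 and 5 in pre-iPSCs, then 12 and 11 in iPSCs (lower bounds 6.20 and 5.49 in iPSCs, upper bounds of 7.22 in MEFs). These stood above 73.8% and 68.0% of promoters in iPSCs, and above 6.72% in MEFs. Trim28 had 0 reads in MEFs, with an upper bound of 3.69, and then 8 and 4. Setdb1 had 6, 2 and 2 reads, Suv39h1 5, 4 and 3, Suv39h2 6, 4 and 6, Cbx1 8, 2 and 6, Cbx3 1, 3 and 7, and Cbx5 2, 4 and 8. With 1 library per cell type these counts were not compared by a test, and no member stood above 73.8% of promoters in any of the 3 libraries. The H3 counts of Ehmt1, from MEFs over pre-iPSCs to iPSCs, were 27, 109 and 85 for replicate 1. For replicate 2 they were 26, 30 and 32. Those of Ehmt2 were 23, 247 and 169 for replicate 1, against 23, 23 and 32 for replicate 2. Whether the H3K9me3 counts of Ehmt1 and Ehmt2 followed their H3 was not tested.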

How the data were processed

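Members were found by symbol, and the members and gene lists were chosen with earlier results of these data known. The authors aligned ChIP-seq reads to mm9 with Bowtie 1.0.1, kept unique reads with duplicates capped, shifted each by 73 bp to its dyad and ran GeneTrack to call nucleosomes, and the deposited count of a call is its number of reads, which are listed with the fuzziness in bp. The deposited FPKM are the authors' values from uniquely mapped reads, with TopHat2 2.0.4 and Cufflinks 2.0.2, in 2 tables with 1 replicate of every cell type each. Groups come from the titles of the samples, and libraries titled as repeats are replicate 2. The study calls the replicates biological but does not say that they are separate cultures, so p-values measure the spread between these samples.

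The test for expression was limma 3.58.1 with a trend, on log2(FPKM + 1), and for counts edgeR 4.0.16 (filterByExpr, TMM, quasi-likelihood), with DESeq2 1.42.0 as an alternative, in R 4.3.3. Reads at promoters were scaled to the study's unique reads. Intervals cover counting error only. Sequence copies were sought with minimap2 2.31-r1302 (at least 200 bp at 90% identity). Tests were checked on simulated data. Named genes are the members, of each list at most the 3 largest called rises and falls in iPSCs against MEFs, the 3 genes most like each member, and genes that share a promoter window. Of these, 1 gene is not reported here. Jhdm1d and the marker genes named were picked after their values were seen. Alternatives changed the pseudocount, filters, scaling, windows, tool, the replicate term and the libraries used.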

Additional observations from a re-analysis of the deposited data

How the results depend on the processing

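The expression of the members was recomputed with a pseudocount of 0.1, no filter, quantile normalization, no replicate block, adjusted p alone and each library left out, where the lone sample left in a group is assumed to vary like the other groups. The number of called members of 9 was 0 in pre-iPSCs against MEFs (0 to 1 with 1 library left out), 0 in iPSCs against pre-iPSCs (1 with quantile normalization, 0 to 2) and 3 in iPSCs against MEFs (1 with no filter, 0 to 3). The number of all genes called in pre-iPSCs against MEFs was 1244 with no filter, against 2032. By their values the replicate numbers did not pair all RNA libraries alike. The differences between replicates correlated at 0.35 for MEFs and pre-iPSCs, 0.11 for pre-iPSCs and iPSCs, and -0.20 for MEFs and iPSCs. With no replicate block, 0, 0 and 3 members were called. For H3K4me3 the correlations were -0.05, 0.12 and 0.00, and the fit with a replicate block called 0 members in each comparison, and 766, 10 and 2528 promoters against 691, 5 and 2450. With 1 library left out, the genes called numbered 1025 to 2869, 36 to 2133 (against 1069) and 655 to 3691 (against 3206).

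For H3K4me3, 5 promoters were called in iPSCs against pre-iPSCs, and 0 to 73 with any alternative. DESeq2 called 31 promoters in pre-iPSCs against MEFs and 119 in iPSCs against MEFs, a 500-bp window 294 and 912, and a 2000-bp window 1622 and 4298, and fits that leave out 1 library 98 to 898 and 603 to 2329. Cbx3 was called in the first of these with the 2000-bp window (-0.71) and without TMM, where Trim28 was called in the second, so that 1 member was called in each. The Cbx3 windows also hold the Hnrnpa2b1 TSS. For H3K27me3, 1 member, Ehmt2, was called in iPSCs against MEFs with the 2000-bp window (1.65). Over all promoters 44 to 2896 were called for this mark in this comparison, depending on the setting. Within 1000 bp Ehmt2 had 1 and 1 H3K27me3 reads in MEFs and 2 and 9 in iPSCs. No member was called with any library left out for H3K4me3. The sign of the expression change turned with quantile normalization: Ehmt2 0.050 (iPSCs against MEFs), Cbx3 0.45 (iPSCs against MEFs). Leaving out 1 library turned the sign of the expression change in pre-iPSCs against MEFs for Cbx1 (-0.20 to 0.25), Cbx3 (-0.089 to 0.27), Cbx5 (-0.022 to 0.50). Leaving out 1 library turned the sign of the expression change in iPSCs against pre-iPSCs for Setdb1 (-0.996 to 0.44), Cbx3 (-0.48 to 0.20), Cbx5 (-0.33 to 0.49). Leaving out 1 library turned the sign of the expression change in iPSCs against MEFs for Suv39h1 (-0.083 to 0.30), Ehmt2 (-0.62 to 0.065), Cbx3 (-0.39 to 0.29), Cbx5 (-0.096 to 0.72). The sign of the H3K4me3 change turned with a window of 500 bp: Cbx1 0.061 (pre-iPSCs against MEFs), Ehmt2 0.36 (iPSCs against pre-iPSCs), Cbx1 -0.034 (iPSCs against pre-iPSCs), Cbx5 -0.40 (iPSCs against pre-iPSCs), Ehmt2 0.26 (iPSCs against MEFs), Cbx1 0.027 (iPSCs against MEFs), Cbx5 -0.13 (iPSCs against MEFs). The sign of the H3K4me3 change turned with scaling to unique reads without TMM: Cbx5 -0.33 (pre-iPSCs against MEFs), Suv39h1 -0.074 (iPSCs against MEFs), Cbx5 -0.24 (iPSCs against MEFs). The sign of the H3K4me3 change turned with a window of 2000 bp: Suv39h1 -0.044 (iPSCs against pre-iPSCs), Suv39h2 -0.033 (iPSCs against pre-iPSCs), Cbx1 -0.19 (iPSCs against pre-iPSCs), Cbx5 -0.074 (iPSCs against pre-iPSCs), Trim28 0.052 (iPSCs against pre-iPSCs), Suv39h1 -0.39 (iPSCs against MEFs), Cbx5 -0.0056 (iPSCs against MEFs). Leaving out 1 library turned the sign of the H3K4me3 change in pre-iPSCs against MEFs for Setdb1 (-0.47 to 0.12), Suv39h1 (-0.29 to 0.18), Ehmt2 (-0.54 to 0.033), Cbx5 (-0.18 to 0.35). Leaving out 1 library turned the sign of the H3K4me3 change in iPSCs against pre-iPSCs for Setdb1 (-2.13 to 0.32), Suv39h1 (-0.15 to 0.66), Suv39h2 (-0.027 to 0.27), Ehmt1 (-0.069 to 0.48), Ehmt2 (-0.32 to 0.26), Cbx3 (-0.13 to 1.02), Cbx5 (-0.17 to 0.29), Trim28 (-0.41 to 0.062). Leaving out 1 library turned the sign of the H3K4me3 change in iPSCs against MEFs for Setdb1 (-2.36 to 0.090), Suv39h1 (-0.17 to 0.64), Ehmt1 (-0.45 to 0.092), Cbx3 (-0.96 to 0.18), Cbx5 (-0.10 to 0.39).

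The H3K9me3 share at promoters of MEFs, pre-iPSCs and iPSCs kept its order: 0.586%, 0.592% and 0.688% with a 500-bp window, 2.59%, 2.77% and 3.02% with 2000 bp, 1.11%, 1.15% and 1.37% with calls of at least 2 reads, 0.997%, 1.02% and 1.16% over unique reads, and 1.23%, 1.28% and 1.45% without chromosomes X and Y. The count of members with the lowest H3 around the TSS in every library was 1, and 0 with calls of at least 2 reads or a window of -200 to 0 bp, and 1 to 2 with 1 library left out. The causes of these changes were not tested.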
